A study of Mus musculus with 4 samples.

Results

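The fatty acid desaturases and elongases described here are 10 genes, Scd1, Scd2, Fads1, Fads2, Fads3, Elovl1, Elovl2, Elovl3, Elovl5 and Elovl6, of 16079 genes tested. They were taken as the probes that were not controls and whose gene name on the array was one of these symbols, which gave 13 probes. Elovl1, Fads2 and Fads3 each had a second probe. All 13 probes were well above background in all 8 channels and passed the filter on dim probes.

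The samples were whole livers of female C57B/6 mice aged 8 to 10 weeks, all homozygous for a floxed Trib1 allele, so that the control animals carried it too. The mice received an adeno-associated virus, either AAV_Cre, which the study's design calls a liver-specific knockout, or AAV_Null, and were chow fed, fasted for 4 hours and killed 1 week after the injection. There were 4 RNAs of each treatment on 4 Agilent 2-colour arrays that each held 1 RNA of each treatment. The Cy5 channel held AAV_Cre RNA on arrays 1 and 2 and AAV_Null RNA on arrays 3 and 4. The promoter that drives Cre is not given in the sources used here, nor is whether animals were pooled for an RNA. Each p-value rests on how far the ratios of arrays of the same dye orientation differ, moderated by the spread over all genes. Whether this is a spread between single animals is therefore not known. The study asked how Trib1, a pseudokinase that brings the transcription factor C/EBPα to a ubiquitin ligase, bears on fat synthesis in the liver.

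Desaturases place double bonds in fatty acids bound to coenzyme A, and elongases of the Elovl family carry out the condensation step that lengthens them in the endoplasmic reticulum. In the liver, Elovl6 and the delta-9 desaturase Scd1 turn newly made palmitate into stearate and oleate, and Elovl1 and Elovl3 lengthen saturated and monounsaturated chains further. Fads2 and Fads1, the delta-6 and delta-5 desaturases, alternate with Elovl5 and Elovl2 to make arachidonic and docosahexaenoic acid from dietary linoleic and linolenic acid.

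The measurements rest on single 60-base probes, and the first 30 bases of the probes of the 4 members with the largest changes are shown so that the measured transcript can be identified. No base is set in capitals. Their positions are on mm9, as the array files give them, at chr19:44469387-44469446 for Scd1, chr19:46209762-46209821 for Elovl3, chr3:129341248-129341307 for Elovl6 and chr13:41277884-41277943 for Elovl2. The exon or untranslated region that each probe lies in is not given in the sources used here.
Scd1 probe: actcctgggctaagtatctgacagtctcac
Elovl3 probe: ggcctggtaggcgcttaataaatgtctttt
Elovl6 probe: cctaggccctaaacccatattcagagggaa
Elovl2 probe: gggaggcagaagccatttttcttttagatg

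Leaving out controls, an array had 43020 spots, of which 51.0% to 55.3% in Cy5 and 53.1% to 58.7% in Cy3 were well above background, and 0 were saturated. Across genes, which are not independent replicates, the ratios of arrays 1 and 2 correlated at 0.67 and those of arrays 3 and 4 at 0.48, while pairs of opposite dye orientation reached 0.07 to 0.19. A dye effect was therefore fitted for every gene. Trib1, the targeted gene, was higher in the RNA labelled AAV_Cre on 4 of 4 arrays, with a log2 ratio of 0.94 ± 0.08 (SE, n = 4 arrays; limma adjusted p = 0.0204). Which part of Trib1 is floxed is not stated in the labels, and only a probe within the deleted part could check them. Directions are given throughout for the RNA labelled AAV_Cre relative to the RNA labelled AAV_Null.

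Elovl3 and Scd1 rose and Elovl2 fell in RNA labelled AAV_Cre, and the other 7 members did not pass the test. The AAV_Cre level was 2.31-fold the AAV_Null level for Elovl3, 1.98-fold for Scd1 and 0.597-fold for Elovl2. A gene was called at an adjusted p under 0.05 in limma over all 16079 genes. By that rule 3 of 10 members were called, 2 higher and 1 lower, while 2.8% of all genes were called, 1.83% higher and 0.976% lower. At an unadjusted p under 0.05 there were 7 members, 3 higher and 4 lower, beside 22.6% of all genes, 11.8% higher and 10.8% lower. The ratio had the same sign on 4 of 4 arrays for 5 members, 3 higher and 2 lower, beside 23.7% of the 15703 genes measured on 4 arrays, 12.4% higher and 11.4% lower. The levels of the 4 AAV_Cre RNAs and the 4 AAV_Null RNAs did not overlap for Elovl3, Elovl2 and Elovl1, as for 5.92% of those genes. Adjusted over all probes in place of genes, 2.39% of probes were called, and the second probes of Elovl1, Fads2 and Fads3 were not.

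As a group the members did not shift in 1 direction. Of the 10 log2 ratios 5 were above 0 and 5 below, with a median of 0.02 over members and of -0.00073 over all genes. The sizes were larger than for most genes, with a median absolute log2 ratio of 0.28 over members against 0.094 over all genes, and the median SE was also larger, at 0.093 against 0.063. Since the members were chosen with results of these data known, these medians describe the list and test nothing.

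**Figure D1:**
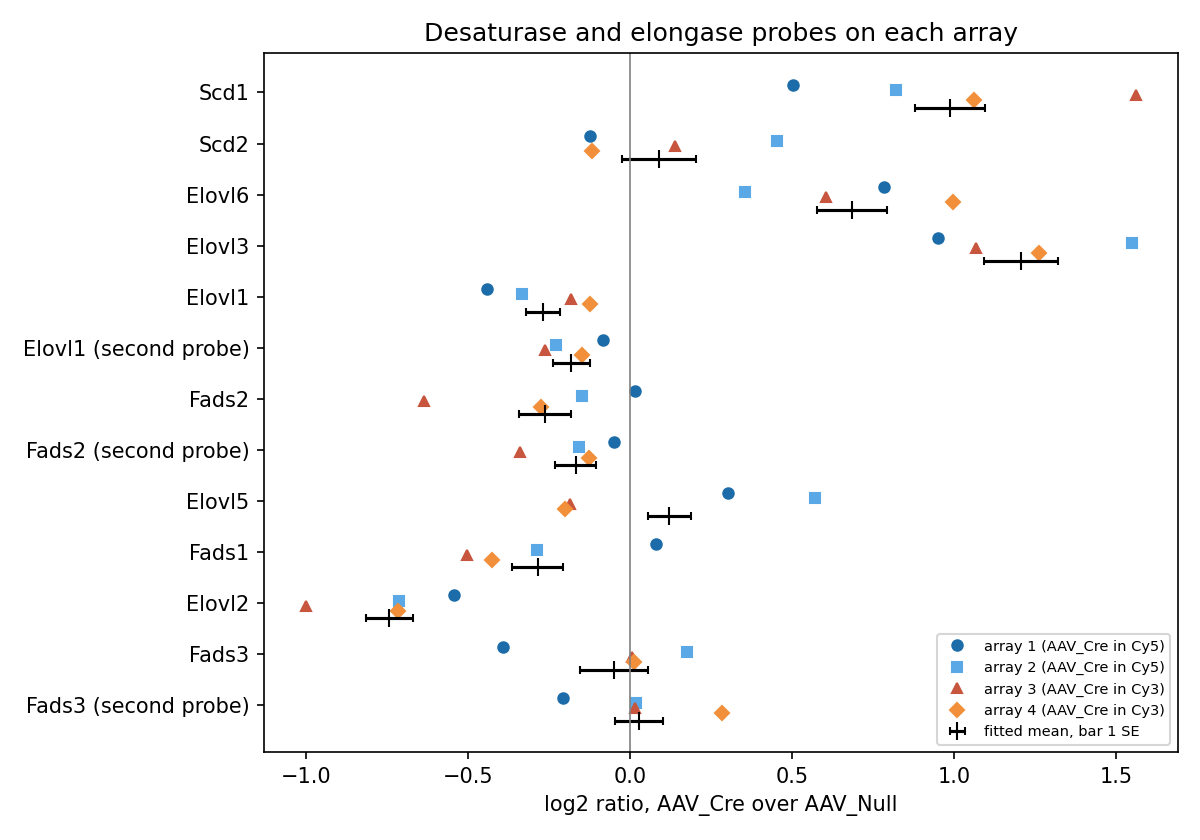
Log2 ratio of AAV_Cre over AAV_Null for each of the 13 member probes. Points are the 4 arrays and the black mark is the fitted mean with a bar of 1 SE. All 4 points of Elovl3, Scd1 and Elovl6 lie above 0. All 4 of Elovl2, of both Elovl1 probes and of the second Fads2 probe lie below, while those of Elovl5 split by dye orientation.

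Scd1, stearoyl-CoA desaturase 1, places the delta-9 double bond that makes oleate from stearate and is the main hepatic form. Its normalised log2 intensity, a level that is compared here only within a probe, was 14.70, 15.07, 15.21 and 16.16 in the AAV_Cre RNAs and 14.20, 14.25, 13.65 and 15.10 in the AAV_Null RNAs of arrays 1 to 4. The ranges overlapped, since the AAV_Null RNA of array 4 was above 2 of the AAV_Cre RNAs, but the AAV_Cre RNA was the higher on every array. The log2 ratios were 0.50, 0.82, 1.56 and 1.06, with a fitted mean of 0.99 ± 0.11 (SE, n = 4; 95% interval 0.70 to 1.27) at an adjusted p of 0.0304 in limma. Arrays 1 and 2 averaged 0.66 and arrays 3 and 4 averaged 1.31. This split goes into the fitted dye effect and not into the SE, and the SD over the 4 arrays was 0.45. Without a dye effect in the model the adjusted p was 0.0480.

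The call of Scd1 needed all 4 arrays. Without array 1, 2, 3 or 4 the log2 ratio was 1.06, 0.91, 0.86 or 1.11, and the adjusted p in limma was 0.137, 0.178, 0.0689 or 0.0676. With a background offset of 16 in place of 50 it was 0.0520.

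Scd2, the delta-9 desaturase best known from brain and from the newborn liver, had log2 ratios of -0.12, 0.45, 0.14 and -0.12. The signs were mixed and the fitted mean was 0.09 ± 0.11 (SE, n = 4; 95% interval -0.21 to 0.39), with an adjusted p of 0.691 in limma. Under the main settings the interval leaves out a change as large as that of Scd1. The Scd2 probe was dimmer, however, at a mean log2 intensity of 8.32 against 14.79. Its ratio was 0.15 with no background correction and 0.20 with processed signals. How far its dimness bears on the ratio was not tested. Scd1 minus Scd2 was 0.63, 0.37, 1.42 and 1.18 on the 4 arrays, so that Scd1 had the higher ratio on each, by 0.90 ± 0.49 (SD, n = 4).

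The Scd family lies in a cluster of similar genes, and Scd3 and Scd4 were also on the array. The Scd1 probe shared at most 8 bases in a row with any Scd2, Scd3 or Scd4 probe. Probe sequences alone were compared, without transcripts, so how far each one reads a single copy is uncertain. Scd3, a desaturase described in skin, rose by 0.77 ± 0.07 (SE, n = 4) on its brighter probe (adjusted p = 0.0214 in limma), with 0.51, 0.71, 1.04 and 0.80 on the 4 arrays. A second Scd3 probe had -0.10 ± 0.09 at an adjusted p over probes of 0.572, so the Scd3 probes did not move together. The single Scd4 probe was well above background in 2 of 8 channels and was not tested.

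Elovl6 lengthens palmitate to stearate and so supplies the substrate of Scd1. Its normalised log2 intensity was 12.27, 11.64, 11.43 and 12.33 in the AAV_Cre RNAs and 11.49, 11.29, 10.82 and 11.33 in the AAV_Null RNAs. The AAV_Cre RNA was the higher on each array, although the ranges of the 2 treatments overlapped. The log2 ratios were 0.78, 0.35, 0.60 and 1.00, with a fitted mean of 0.68 ± 0.11 (SE, n = 4; 95% interval 0.40 to 0.96), or 1.61-fold. The adjusted p was 0.0547 in limma, just above the threshold, and Elovl6 was therefore not called. It passed under 8 of 19 alternative settings, among them a threshold of 0.10 and the fit without a dye effect at an adjusted p of 0.0474.

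Elovl3 makes very long saturated and monounsaturated chains and is known from brown fat, skin and, in mice, the male liver. Its log2 intensity was 11.07, 12.01, 11.44 and 11.21 in the AAV_Cre RNAs and 10.12, 10.46, 10.37 and 9.95 in the AAV_Null RNAs. Every AAV_Cre RNA was above every AAV_Null RNA, as was so for 3.25% of the genes measured on 4 arrays. The log2 ratios were 0.95, 1.55, 1.07 and 1.26, and the fitted mean was 1.21 ± 0.11 (SE, n = 4; 95% interval 0.908 to 1.504), with an adjusted p of 0.0224 in limma. This was the largest ratio among the 10 members and stood at rank 34 from the highest ratio of all genes tested. Both dye orientations gave a similar mean, 1.25 on arrays 1 and 2 and 1.16 on arrays 3 and 4. Without array 1, 2, 3 or 4 the log2 ratio was 1.36, 1.06, 1.25 or 1.16, with an adjusted p of 0.0710, 0.112, 0.0717 or 0.0845.

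Elovl1, an elongase of very long saturated and monounsaturated chains that supplies ceramide synthesis, did not pass the test. The brighter of its 2 probes, at chr4:118105163-118105222, had log2 ratios of -0.44, -0.33, -0.18 and -0.12, with a fitted mean of -0.27 ± 0.05 (SE, n = 4; 95% interval -0.41 to -0.13) and an adjusted p of 0.0791 in limma. The 4 AAV_Cre levels, 13.25 to 13.48, were all below the 4 AAV_Null levels, 13.59 to 13.81, as was so for 2.66% of genes. The second probe, 422 bases away in start position, had -0.08, -0.23, -0.26 and -0.15, with -0.18 ± 0.06 and an adjusted p over probes of 0.171, and its levels overlapped. The brighter probe passed under 5 of 19 alternative settings, among them the authors' deposited log2 values (limma adjusted p = 0.0363) and the separate-channel fit (adjusted p = 0.00542).

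**Figure D2:**
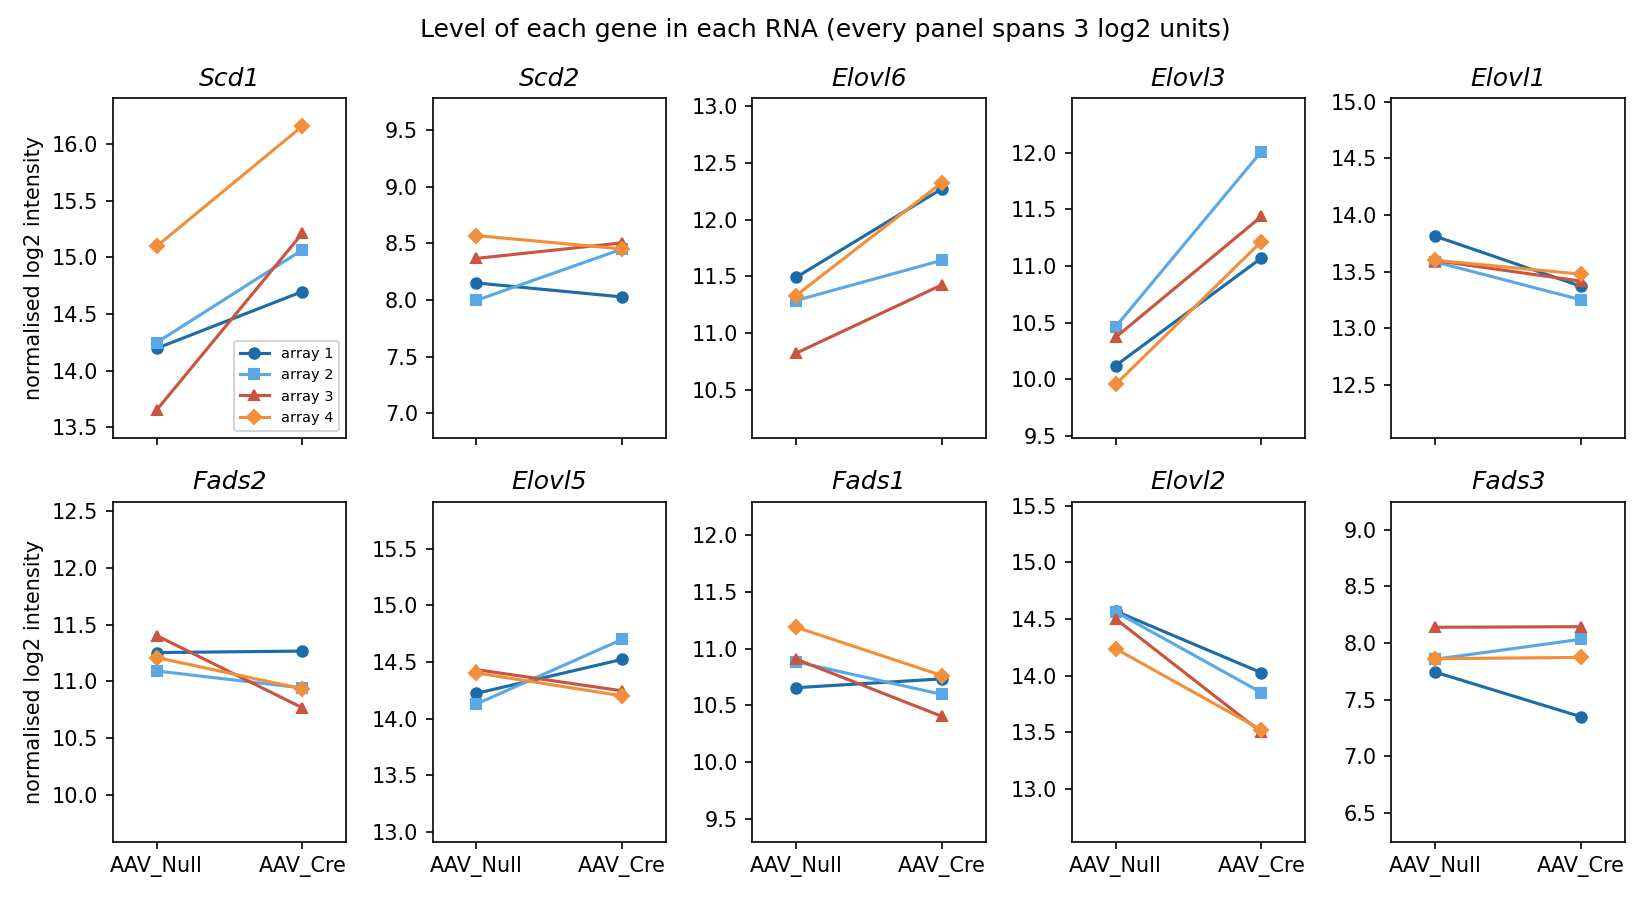
Normalised log2 intensity of each member in each RNA, with a line joining the AAV_Null and AAV_Cre RNA of 1 array; every panel spans the same number of log2 units. The lines of Scd1, Elovl6 and Elovl3 go up and those of Elovl2 go down on all 4 arrays, and the levels of the treatments are apart for Elovl3, Elovl2 and Elovl1.

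On the polyunsaturated branch, 3 of 4 members had ratios below 0 and Elovl2 fell. Elovl2 lengthens the longer polyunsaturated chains and is required for docosahexaenoic acid synthesis. Its log2 intensity was 14.02, 13.85, 13.50 and 13.52 in the AAV_Cre RNAs and 14.57, 14.56, 14.50 and 14.24 in the AAV_Null RNAs. The treatments did not overlap, and the lowest AAV_Null RNA was still above the highest AAV_Cre RNA. The log2 ratios were -0.544, -0.713, -1.002 and -0.717, with a fitted mean of -0.74 ± 0.07 (SE, n = 4; 95% interval -0.93 to -0.55) at an adjusted p of 0.0242 in limma. Elovl2 stood at rank 53 from the lowest ratio of all genes. Without array 1, 2, 3 or 4 the log2 ratio was -0.79, -0.70, -0.67 or -0.82, with an adjusted p of 0.137, 0.168, 0.0689 or 0.0676.

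Fads2, the delta-6 desaturase that opens the branch, had log2 ratios of 0.01, -0.15, -0.64 and -0.28 on its brighter probe at chr19:10137760-10137819. The fitted mean was -0.26 ± 0.08 (SE, n = 4; 95% interval -0.48 to -0.05) and the adjusted p 0.160 in limma. A second probe, at chr19:10163229-10163288 and 25.5 kb away, had -0.05, -0.16, -0.34 and -0.13, with -0.17 ± 0.06 and an adjusted p over probes of 0.215. Both probes were lowest on array 3 and nearest to 0 on array 1, and they differed by -0.09 ± 0.16 (SD, n = 4).

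Fads1, the delta-5 desaturase that makes arachidonic acid, had log2 ratios of 0.08, -0.29, -0.51 and -0.43 at chr19:10270530-10270589. The fitted mean was -0.29 ± 0.08 (SE, n = 4; 95% interval -0.49 to -0.08) and the adjusted p 0.134 in limma. As for the brighter Fads2 probe, array 1 lay slightly above 0 and the other arrays below. Fads1 and Fads2 passed under 1 of 19 alternative settings, a fit to the 2 channels separately, at adjusted p-values of 0.0226 and 0.0285, in which 1302 genes were called higher and 1199 lower.

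Elovl5, which lengthens polyunsaturated chains between the desaturation steps, had log2 ratios of 0.30, 0.57, -0.19 and -0.20 at chr9:77832205-77832264. The sign followed the dye orientation, with a mean of 0.44 on arrays 1 and 2 and of -0.19 on arrays 3 and 4. The fitted mean was 0.12 ± 0.07 (SE, n = 4; 95% interval -0.05 to 0.29) with an adjusted p of 0.353 (limma), and the dye effect had an adjusted p of 0.0923. Of 10 hepatocyte markers 6 (Ahsg, Alb, Apoc3, Serpina1a, Serpina1c and Ttr) had the same signs as Elovl5 on each array, while Tat had -0.25, -0.23, 0.63 and 0.25, Cps1 was above 0 on 4 arrays, and Apoa1 and Fgb had mixed signs. The fitted dye effect was 0.44 to 0.94 for those 6 and -0.34 to 0.03 for the other 4, beside 0.32 for Elovl5. Those 6 were also the brightest of the 10, with a mean log2 intensity of 17.80 to 18.01 against 12.59 to 16.93. Elovl5 had 14.36, within the range of the other 4 and below that of the 6. The median ratio over the 10 was 0.36, 0.38, -0.47 and -0.71 on arrays 1 to 4. The part of these markers, of the dyes and of brightness in the values of Elovl5 was not tested.

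Fads3, a desaturase of the same gene cluster as Fads1 and Fads2 that acts on sphingoid bases, was measured by 2 probes. Its brighter probe, at chr19:10132641-10132700, had -0.39, 0.18, 0.01 and 0.01, and the second, at chr19:10134543-10134602, had -0.21, 0.02, 0.01 and 0.28. Neither had 1 sign throughout, and the fitted means were -0.05 ± 0.11 and 0.03 ± 0.08 (SE, n = 4), with an adjusted p of 0.812 in limma for the gene. The 95% interval of the brighter probe ran from -0.33 to 0.23, so that a change of the size seen for Elovl2 lies outside it. Both Fads3 probes were dim, however, at mean log2 intensities of 7.88 and 7.37 against 14.10 for Elovl2. How far their dimness bears on the ratios was not tested.

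The members of the 2 branches can be set side by side. Of the 5 that act on saturated and monounsaturated chains, Scd1, Scd2, Elovl6, Elovl3 and Elovl1, 4 had ratios above 0, and their median was 0.68, with 0.50, 0.45, 0.60 and 1.00 on the 4 arrays. Of the 4 that act on polyunsaturated chains, Fads2, Elovl5, Fads1 and Elovl2, 1 had a ratio above 0, and their median was -0.27, with 0.05, -0.22, -0.57 and -0.35 on the 4 arrays. The saturated branch had the higher median on every array, but its members did not move together. Its median of 0.68 is the value of Elovl6, which was not called. Scd2 had 0.09, and Elovl1 was below 0 on 4 of 4 arrays. The widest gap was between the elongases Elovl3 and Elovl2, whose log2 ratios differed by 1.49, 2.26, 2.07 and 1.98, a mean of 1.95 ± 0.33 (SD, n = 4). Elovl6 minus Elovl2 was 1.43 ± 0.29 (SD, n = 4), while Elovl6 minus Elovl5 was 0.56 ± 0.60 and below 0 on array 2. The branches and these pairs were set side by side with the results known and have no test. Over 4 arrays the smallest two-sided p of an exact sign permutation test is 1 in 8.

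**Figure D3:**
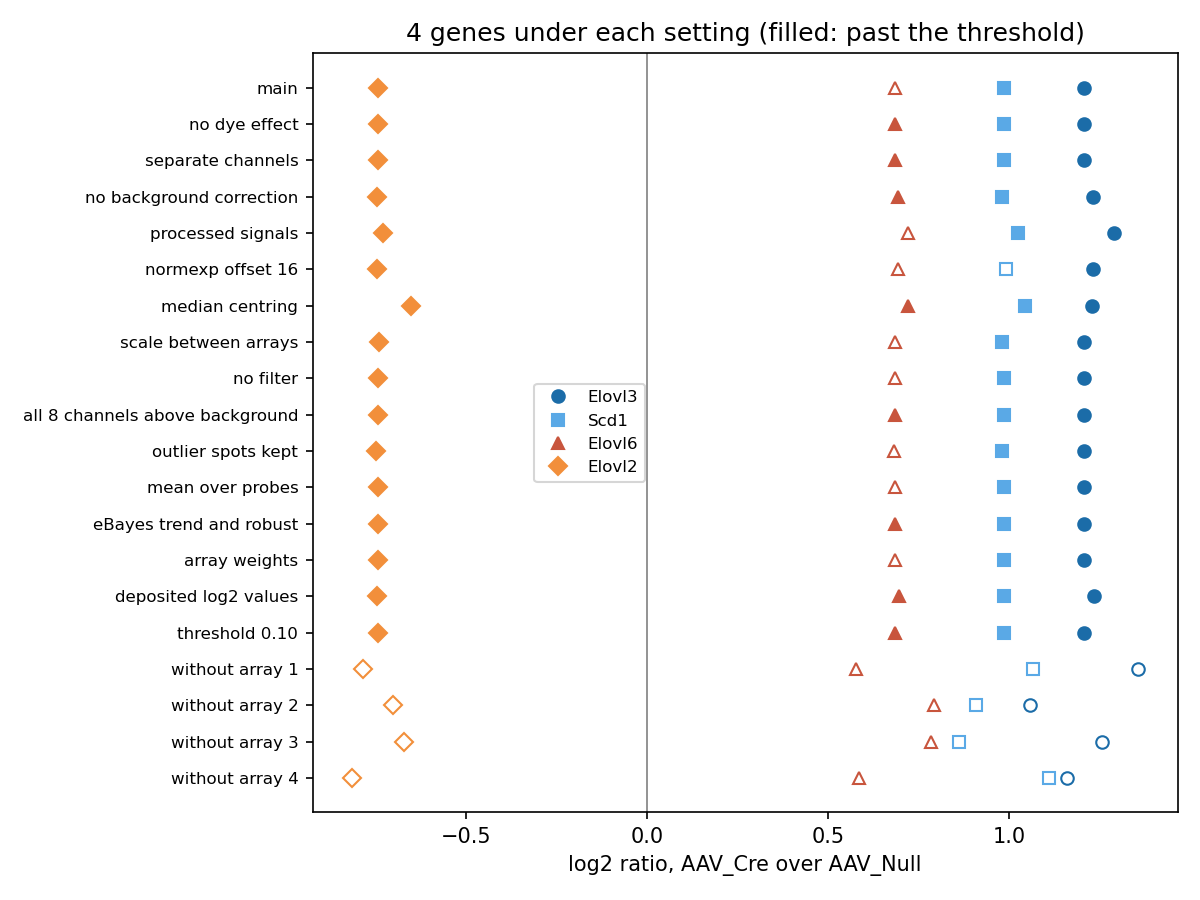
Log2 ratio of Elovl3, Scd1, Elovl6 and Elovl2 under the settings used here (main) and under each alternative, with filled marks where the adjusted p passed the threshold. The values kept their sign under all settings shown; every call of Elovl3, Scd1 and Elovl2 was lost when any 1 array was left out.

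The steps that surround elongation and desaturation were mostly not called. Among the partner enzymes of the elongation cycle, the 3-ketoacyl-CoA reductase, the dehydratases and the enoyl reductase, 0 of 6 tested genes passed in limma, 2 had an unadjusted p under 0.05, and the smallest p was that of the dehydratase Hacd2, at 0.29 ± 0.05 (SE, n = 4) with an adjusted p of 0.0695. The other probes of Hacd2, both dimmer, had 0.31 and 0.47, at adjusted p-values over probes of 0.0598 and 0.0386 in limma, so 1 of its 3 probes passed. Among the genes of electron supply to the desaturases, cytochrome b5 and its reductases, 0 of 5 passed and 1 had an unadjusted p under 0.05, Cyb5r3 at -0.17 with an adjusted p of 0.217. The medians of the 2 lists were 0.08 and -0.05, beside -0.00073 over all genes.

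Supply of palmitate and malonyl-CoA, the substrates of elongation, had 2 genes that rose among 8 tested and 0 that fell. Over all genes 1.83% were called higher and 0.976% lower. Me1, malic enzyme, which makes NADPH, rose by 1.102 ± 0.09 (SE, n = 4; limma adjusted p = 0.0204), and its 3 probes lay between 0.97 and 1.34. Fasn, fatty acid synthase, had 0.77, 0.88, 0.63 and 0.93 on the 4 arrays and rose by 0.80 ± 0.07 at an adjusted p of 0.0211. Acaca, acetyl-CoA carboxylase, had 0.38 at an adjusted p of 0.0855, and the list's median was 0.29. Of 7 tested acyl-CoA synthetases, Acsl4, which prefers arachidonic acid, rose by 0.80 ± 0.05 at an adjusted p of 0.0123. Slc27a5, a very long chain and bile acid synthetase, fell by 0.35 ± 0.05 at an adjusted p of 0.0494 in limma. Its second probe had -0.22 at an adjusted p over probes of 0.109. The surrounding lists held 14 called genes in all, against 1, 0, 1 or 0 without array 1, 2, 3 or 4, and the whole array 451, against 14, 0, 38 or 5 without array 1, 2, 3 or 4.

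The lists further from these enzymes held no call in limma. Of 8 genes of acyl-CoA binding and thioester hydrolysis 0 passed and 1 had an unadjusted p under 0.05, with Acot12 at 0.17 and an adjusted p of 0.212. Of 9 genes of peroxisomal chain shortening, the last step of docosahexaenoic acid synthesis, 0 passed and 1 had an unadjusted p under 0.05, with Abcd2 at 0.28 and an adjusted p of 0.112. Of 4 tested genes of phospholipid acyl remodelling 0 passed at either level, and Lpcat1 had 0.16 with an adjusted p of 0.307. Of 6 genes of ceramide synthesis 0 passed and 2 had an unadjusted p under 0.05, with Cers2, which takes very long chains, at 0.28 and an adjusted p of 0.0632.

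Among 20 tested transcription factors and sensors of lipid synthesis, Pparg rose and Cebpa fell, beside 2.8% of all genes called. Pparg, a nuclear receptor of fat storage, rose by 0.62 ± 0.06 (SE, n = 4; limma adjusted p = 0.0221). Cebpa had -0.75, -0.81, -0.52 and -0.27 on the 4 arrays and fell by 0.59 ± 0.06 at an adjusted p of 0.0301. Srebf1, the sterol-regulated factor that drives desaturase genes, had 0.01 at an adjusted p of 0.910. Mlxipl, the carbohydrate-responsive factor, had 0.14 on its brighter probe at an adjusted p of 0.294. Its second probe had the opposite sign, -0.18, at an adjusted p over probes of 0.186 in limma. Insig2 had 0.80 ± 0.15 and Insig1 had -0.45, both regulators that hold the sterol-sensing complex in the endoplasmic reticulum, at adjusted p-values of 0.0708 and 0.102. On a second probe Insig2 had 0.90, at an adjusted p over probes of 0.0527 in limma. RNA of these factors and sensors was measured here and their protein was not.

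**Figure D4:**
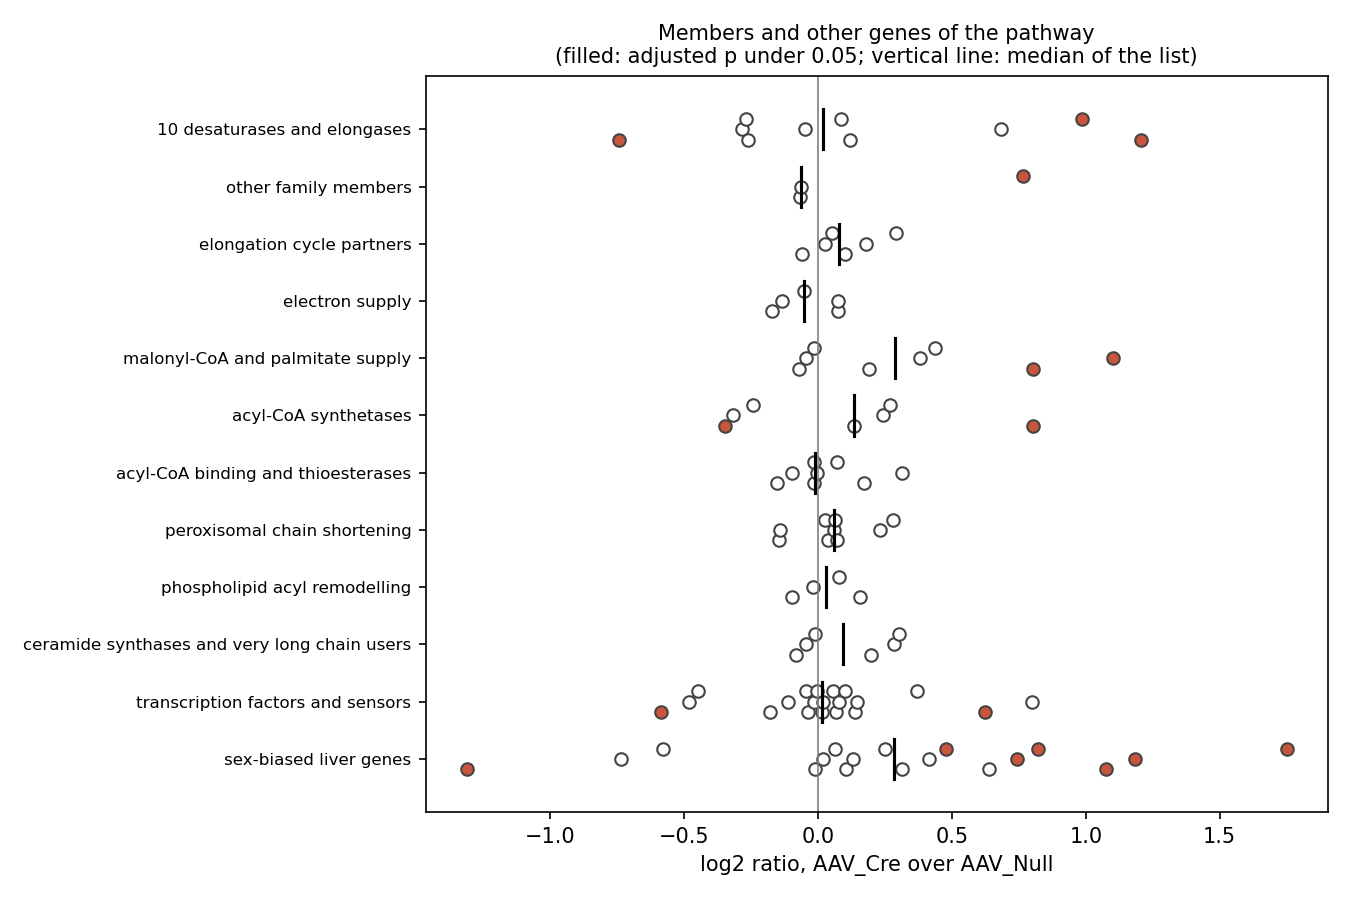
Log2 ratio of AAV_Cre over AAV_Null of the members and of the genes tested in each surrounding list. Each circle is 1 gene, filled where the adjusted p was under 0.05, and the vertical bar is the median of the list; called genes are seen on both sides of 0 among the members, the acyl-CoA synthetases, the transcription factors and the sex-biased genes.

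Elovl3 is male-biased in mouse liver, and other sex-biased liver genes were read beside it in these female mice. Of 18 tested, in a list chosen with earlier results known, 6 rose and 1 fell, beside 1.83% of all genes higher and 0.976% lower. Those that rose included the male-biased Cyp4a12b (1.08), Mup21 (0.82) and Susd4 (0.74), and the female-biased Sult2a1 (1.75) and Cyp2b13 (0.48), with adjusted p-values between 0.0162 and 0.0381 in limma. Cyp4a14 fell by 1.31 over the 3 arrays that measured it. The male-biased Hsd3b5 and Slco1a1 had -0.58 and -0.73 and did not pass. Hsd3b5 had -1.21, -1.35, -0.13 and 0.37 on the 4 arrays. Cyp4a12a, at 0.64, and Mup20, at 0.41, did not pass either (limma adjusted p = 0.0549 for both). A second Mup20 probe had 0.90 at an adjusted p over probes of 0.0266 in limma. Cyp7b1, Cyp2d9 and Cyp2u1 had 0.06, 0.02 and -0.01. Male-biased genes thus stood on both sides of 0, more of them above it. Several of these genes belong to families of near-identical copies, and their signals are uncertain as to the copy.

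The genes with the ratios most like those of the called elongases were found by distance over the 4 arrays among 15703 genes. Nearest to Elovl3 were Pnpla3, a lipid droplet hydrolase, at a distance of 0.270 on the log2 scale, Morc4 at 0.277 and Cidec, a lipid droplet protein, at 0.404. Nearest to Elovl2 were Ocln, a tight junction protein, at 0.175, the sulfotransferase Sult1c2 at 0.178 and Adgrf1 at 0.188. Pnpla3 had 1.00, 1.59, 0.93 and 1.49 on the 4 arrays, and Ocln had -0.65, -0.71, -0.88 and -0.79.

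Whole liver holds several cell types, and in bulk RNA fewer cells of a type and less RNA per cell cannot be told apart. Of 10 hepatocyte markers 0 were called and 3 had an unadjusted p under 0.05, 1 higher and 2 lower, and their summed log2 level ran from 20.21 to 21.06 in the AAV_Cre and from 20.44 to 21.04 in the AAV_Null RNAs. Of 8 endothelial markers 0 were called in limma, but 6 had an unadjusted p under 0.05, 5 lower and 1 higher, beside 22.6% of all genes, and their summed level ran from 14.03 to 14.13 against 14.10 to 14.61. Of 8 Kupffer cell markers 0 were called in limma and 1 had an unadjusted p under 0.05, which was lower. All but Cd68 had ratios below 0. The list's median was -0.23, with -0.32, -0.29, 0.29 and -0.65 on the 4 arrays. The summed level of the 7 measured on 4 arrays ran from 14.72 to 15.70 against 15.24 to 15.90. Of 3 cholangiocyte, 6 lymphocyte and 3 erythroid markers tested 0 were called in limma, with 1, 1 and 0 at an unadjusted p under 0.05, both higher. Of 6 stellate cell markers tested, Col3a1 rose by 0.47 at an adjusted p of 0.0433 in limma. All 6 ratios were above 0 with a median of 0.34, 4 had an unadjusted p under 0.05, and the summed level ran from 15.545 to 16.001 against 15.006 to 15.831. Their part in the members' values was not tested. Of the adipocyte markers, Adipoq, Lep, Plin1 and Cfd were well above background in 0 of 8 channels, and neither Cidea nor Retn was called in limma. Retn had 0.75, above 0 on 4 of 4 arrays, at an unadjusted p of 0.0071 and an adjusted p of 0.0948, with levels of 8.03 to 8.69 against 7.34 to 7.69, and 0.13 on a second probe.

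Promoter sequences from RefSeq (GRCm38.p6) were matched for 6 of the 10 members, with 8 start sites, and had no entry for Scd1, Scd2, Fads1 and Elovl3. The 250 bases before the start are shown for Elovl6 and Elovl2, the members with an entry that lie nearest to or past the threshold in opposite directions, and for Elovl5, which had the most motif matches. Capitals mark matches, on either strand, to 5 motifs, a sterol regulatory element TCACNCCAC, a CCAAT box, an E-box CACGTG, a C/EBP-type motif TTNNGNAAT and a STAT-type motif TTCNNNGAA. They are at chr3:129532136-129532385 on the plus strand, chr13:41220404-41220653 on the minus strand and chr9:77917115-77917364 on the plus strand.
Elovl6 promoter: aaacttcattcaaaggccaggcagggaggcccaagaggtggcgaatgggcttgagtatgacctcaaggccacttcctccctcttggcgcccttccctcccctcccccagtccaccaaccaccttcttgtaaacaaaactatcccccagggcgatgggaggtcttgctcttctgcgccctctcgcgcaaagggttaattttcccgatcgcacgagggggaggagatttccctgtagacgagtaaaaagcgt
Elovl2 promoter: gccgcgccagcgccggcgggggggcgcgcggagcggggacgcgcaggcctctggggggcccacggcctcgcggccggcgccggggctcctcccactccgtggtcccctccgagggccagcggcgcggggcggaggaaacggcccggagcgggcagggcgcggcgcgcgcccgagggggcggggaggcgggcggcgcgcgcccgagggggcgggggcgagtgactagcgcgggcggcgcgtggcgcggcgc
Elovl5 promoter: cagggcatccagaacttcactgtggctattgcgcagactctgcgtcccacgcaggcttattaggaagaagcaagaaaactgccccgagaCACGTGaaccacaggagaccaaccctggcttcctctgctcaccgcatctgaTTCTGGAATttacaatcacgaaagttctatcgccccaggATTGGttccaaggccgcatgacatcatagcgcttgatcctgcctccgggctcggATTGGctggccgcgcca

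The Elovl6 window and both Elovl2 windows held 0 matches to these motifs, as did the Fads2 window. The Elovl2 window shown is 87.2% G and C, against 56.4% for Elovl6 and 55.6% for Elovl5. The Elovl5 window held 2 CCAAT boxes, whose first bases lie 71 and 17 bases before the start, an E-box at 161 and a C/EBP-type match at 110. Fads3 held 2 CCAAT boxes and Elovl1 held 1 at 1 of its 2 starts. Over 32851 promoters of the same length, 33.8% held a CCAAT box, 6.02% the E-box, 10.2% the C/EBP-type motif, 7.02% the STAT-type motif and 1.05% the sterol regulatory element. A match is a run of letters and not a shown site, and no match says only that these letters are not in the window.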

How the data were processed

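The 8 liver RNAs were hybridised once each to 4 arrays of a single Agilent slide, with the dyes balanced between treatments, per the labels. Per the file headers, Feature Extraction 11.5.1.1 gave each spot's intensity, its local background and a log10 ratio of Cy5 over Cy3. The authors' deposited table holds log2 values. Its slope against the scanner's log10 ratio was 3.34, 3.33, -3.29 and -3.40 on arrays 1 to 4, which makes it a log2 ratio of AAV_Cre over AAV_Null if the dyes are as labelled. The medians were -0.022, -0.038, 0.035 and 0.041, and its 43173 rows include 2 that are not in the scanner files. The normalisation is not given in the sources used here beyond limma being named in the submitters' processing notes.

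Mean intensities were corrected by normexp with an offset of 50 and normalised by loess within each array, with control and outlier spots at weight 0 (limma 3.58.1, R 4.3.3). The filter required a probe to exceed background in 3 or more channels of a treatment, which 20585 of 39429 probes did, and 20335 of these were tested. Dye and treatment effects were fitted to the log2 ratios (lmFit, eBayes; at most 2 residual and 2.67 prior degrees of freedom). A gene was its probe of highest mean intensity, Benjamini-Hochberg adjustment ran over 16079 genes, and levels per RNA were scaled by Aquantile. The number of arrays limits the precision. Symbols were updated through RefSeq names (27508 probes by accession, 404 by synonym). The fit was tested on simulated data. Alternatives were other dye, background, normalisation, filter, probe and empirical Bayes settings, the deposited values and each array left out. Figures were drawn with matplotlib 3.10.9.

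The members, the surrounding lists and the rules were chosen with earlier results of these data known. Named genes were Trib1, Cebpa, all members, the called genes of each list or its gene of smallest p, and the 3 nearest genes of the 2 members of smallest p. Other list genes are given to describe a count. Of the genes this rule names, 1 is not reported here.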

Additional observations from a re-analysis of the deposited data

Results flagged for a closer look

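Among 39 sets of 4 levels (the 4 RNAs of a treatment for each member probe, and the 4 ratios), 3 had a value that stood apart, and about 1.95 would by chance. The AAV_Null level of the brighter Elovl1 probe was 13.81 on array 1, above 13.59 to 13.60 on the others. The AAV_Null level of the second Elovl1 probe was 8.96 on array 2, below 9.11 to 9.13. The AAV_Cre level of Scd2 was 8.03 on array 1, below 8.45 to 8.51. The log2 ratio of Elovl5 differed between dye orientations by 0.63, positive with AAV_Cre in Cy5 and negative with AAV_Cre in Cy3, with an adjusted p of 0.0923 for the dye effect in limma.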

How the results depend on the processing

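Elovl3 and Elovl2 stayed past the threshold under all 15 alternatives that kept 4 arrays, and Scd1 under all but the offset of 16, where it had 0.99 at an adjusted p of 0.052 and 1 member was higher. With 1 array left out, Scd1 ran from 0.86 to 1.11, Elovl3 from 1.06 to 1.36 and Elovl2 from -0.82 to -0.67, none was called, and 0 members were higher and 0 lower. With 3 arrays there is 1 residual degree of freedom at most. Members that fell numbered 4 with separate channels and 2 with no background correction, with trend and robust empirical Bayes, with the authors' deposited log2 values and at a threshold of 0.10. Genes called over all genes were 286 with no dye effect, 756 with median centring, 288 with no filter, 200 with an offset of 16, 772 with processed signals, 1411 with no background correction, 1469 with trend and robust empirical Bayes, 2501 with separate channels, 1372 with the deposited values and 1307 at a threshold of 0.10, against 451, and 0 to 38 with 1 array left out. With all 8 channels above background 612 genes were called over all genes. Called genes of the surrounding lists were 9 with no dye effect, 13 with no filter and 20 with median centring, against 14. They were 20 with all 8 channels above background, 27 with the deposited values and 25 at a threshold of 0.10. With 1 array left out they were 0 to 1. With 1 array left out Fads3 ran from -0.193 to 0.092 and Scd2 from -0.057 to 0.231, with the sign turned without array 1 for Fads3 and without array 2 for Scd2, and neither was called. The causes of these differences were not tested. The ratio within an array is itself the paired comparison of its 2 RNAs, and no further replicate block was fitted.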
